A study of Rattus norvegicus with 6 samples.

Results

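The miR-126a arms are miR-126a-3p and miR-126a-5p, the mature miRNAs cut from the right and the left side of 1 precursor hairpin. They were taken by name and are 2 of the 758 rat miRNAs on the Agilent array. Both were measured in the myocardium of male Sprague–Dawley rats, on 3 arrays of the control group and 3 of the model group. In the model group an acute myocardial infarction had been made by tying off the left coronary artery's anterior descending branch, and tissue came from the infarct marginal zone. In the control group the thread was passed and not tied, and the labels do not say from which part of the heart the tissue came. All samples were taken at 4 weeks, and the age of the rats is not given in the sources used here. Replicate arrays are labelled as separate samples of a group.

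MiRNAs guide the silencing of messenger RNAs that pair with their seed, bases 2 to 8 from the 5′ end. miR-126 is known as a miRNA of endothelial cells, the lining of blood vessels. It is carried within Egfl7, a gene for a protein that endothelial cells secrete. The 3p arm is known for repressing Spred1 and Pik3r2, which hold back signalling by vascular endothelial growth factor, and the 5p arm is known for repressing Dlk1 in endothelial cells. The arrays measured no messenger RNA, so the endothelial origin of the arms is background here and could not be checked against endothelial marker genes. In whole myocardium, fewer cells of a type and less of a miRNA per cell cannot be told apart.

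The mature sequences are shown because the 2 arms share a precursor and yet carry different seeds, and because a miRNA with a similar name lies on the opposite strand. They come from RefSeq (rat build GRCr8) and run 5′ to 3′, with the seed in capitals.
rno-miR-126a-5p: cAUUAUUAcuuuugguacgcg
rno-miR-126a-3p: uCGUACCGugaguaauaaugcg
rno-miR-126b: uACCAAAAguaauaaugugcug
The 5p arm lies at chr3:29813182-29813202 and the 3p arm at chr3:29813219-29813240, both on the + strand with 16 bases between them. In the RefSeq tables both lie inside the span of Egfl7, which is on the same strand. The tables used here do not say whether that place is exonic or intronic. The 5p arm has 21 bases, of which 8 are G or C, and the 3p arm has 22 bases, of which 10 are. Beside these 3, the RefSeq table holds 690 rat miRNAs, of which 0 share the seed of either arm. The longest run of bases that any of the 690 shares with the 3p arm has 6 bases, and for the 5p arm it has 9 bases, shared with miR-295-3p. miR-126b lies at chr3:29813177-29813198 on the - strand, over 17 bases of the 5p arm, and a run of 17 of its bases is complementary to that arm. It shares a run of 10 bases with the 3p arm. RefSeq files both arms under the symbol Mir126b and miR-126b under Mir126a. The names used here are those of the array.

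Array signals are the brightness of spots whose short probes bind Cy3-labelled RNA. A probe was taken as detected where its signal exceeded 3 times the error given by the scanner software. The 6 arrays shared a slide and a scan time, with model arrays 2 and 3 placed in row 2 and the rest in row 1. Between 206 and 222 miRNAs were detected per array, the lowest of them at signals between 1.16 and 1.60, and 0 spots were saturated.

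Both arms were detected on all 6 arrays. The 3p arm was bright and the 5p arm far dimmer, though by mean rank 5p stood in place 98 of the 198 miRNAs detected on every array. Summed over its 2 probes, miR-126a-3p had signals of 1279, 1691 and 1159.7 on control arrays 1, 2 and 3, and model arrays 1, 2 and 3 gave 1187, 1158 and 1096. Control array 2 was the highest, and model array 1 lay above control array 3, so the groups overlapped before scaling (two-sided exact permutation test on group means, p = 0.2, where 3 arrays against 3 allow 0.1 at the smallest). For miR-126a-5p, which has a single probe, the control arrays gave signals of 32.1, 42.1 and 27.5, and the model arrays gave 29.3, 25.1 and 24.5. It followed the same order among the control arrays, and the groups again overlapped (exact permutation test, two-sided, p = 0.2). Control array 2, the highest for both arms, also had the largest summed signal of all detected miRNAs, 84643 against 57729 to 71877 on the other arrays.

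The probes measured the arms with little spread within an array. Each of the 2 probes of miR-126a-3p had 8 spots, whose coefficient of variation was 1.08% to 4.70%, and the single probe of miR-126a-5p had 16 spots, with 6.68% to 10.6%. All of these spots were well above background on every array. The brighter probe of miR-126a-3p gave 3.79 to 3.93 times the signal of the dimmer one, and this ratio overlapped between the groups. In contrast, miR-126b, whose sequence is complementary to much of the 5p arm, was detected on 0 of 6 arrays. Its higher probe gave signals between -0.53 and 0.31, below the lowest detected signal of every array.

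**Figure D1:**
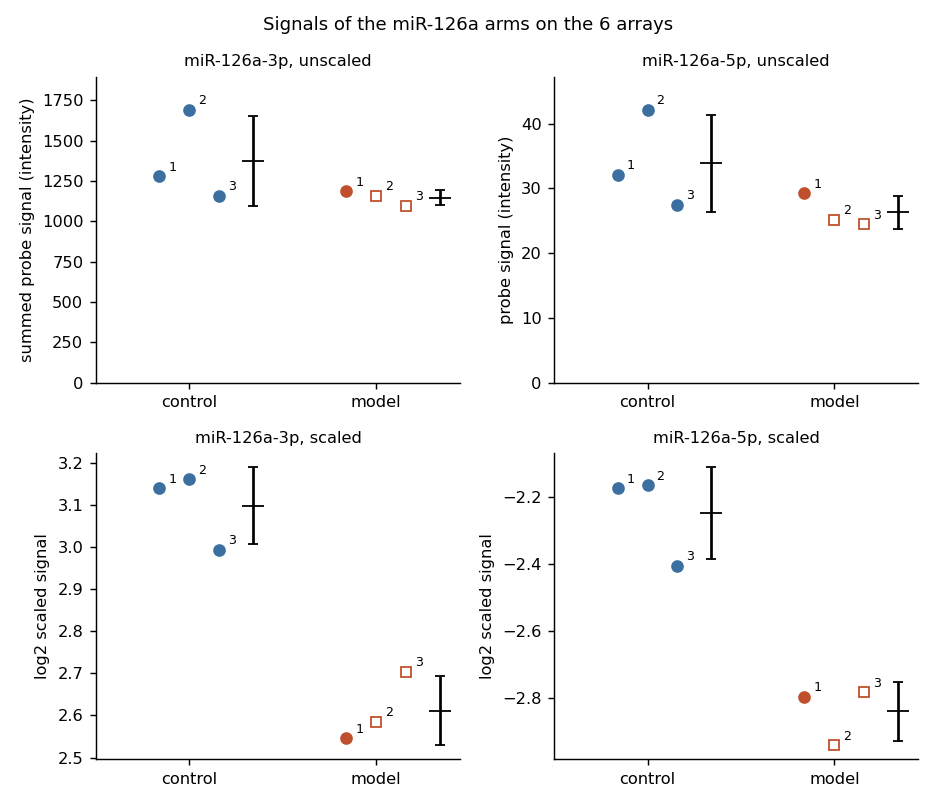
Signals of miR-126a-3p (left) and miR-126a-5p (right) on each array, as summed probe intensity before scaling (top) and as log2 scaled signal (bottom). Points are arrays numbered by replicate, filled circles lie in row 1 of the slide and open squares in row 2, and the black marks give the mean and the standard deviation of 3 arrays. Before scaling the groups overlap for both arms, and after scaling all 3 model arrays lie below all 3 control arrays.

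Both arms fell in the model group after scaling, in which the signals of an array were taken relative to its own 75th percentile over 198 miRNAs seen on every array. For miR-126a-3p the log2 scaled signals of the control arrays were 3.14, 3.16 and 2.99, and those of the model arrays were 2.55, 2.59 and 2.70. All model arrays were below all control arrays. The group means were 3.10 ± 0.09 (SD, n = 3) and 2.61 ± 0.08 (SD, n = 3), a log2 fold change of -0.49 (standard error 0.09, 95% interval -0.70 to -0.28, adjusted p = 0.0154, limma with Benjamini-Hochberg adjustment over 214 miRNAs), or 28.7% lower. For miR-126a-5p the control arrays had log2 scaled signals of -2.18, -2.17 and -2.41, while the model arrays had -2.80, -2.94 and -2.78. Its groups did not overlap either. Its means were -2.25 ± 0.14 (SD, n = 3) and -2.84 ± 0.09 (SD, n = 3), a log2 fold change of -0.59 (standard error 0.10, 95% interval -0.84 to -0.34, adjusted p = 0.0132 in limma), or 33.6% lower. Both changes were under the 2-fold threshold of the study. The 2 probes of miR-126a-3p taken alone gave -0.47 for the dimmer probe and -0.49 for the brighter one. Model array 1 alone, which shared its row with the control arrays, differed from the control mean by -0.55 on the log2 scale for each arm. With the slide row as a block in limma, the adjusted p was 0.0477 for 3p and 0.0710 for 5p, so that the call of 5p was lost.

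Of all 214 miRNAs tested, 27 were lower with an adjusted p under 0.05, or 12.6%, and 22 were higher, or 10.3%, which makes 49 called, or 22.9%. The groups did not overlap for 101 miRNAs, or 47.2%, and for 66 of them, or 30.8% of those tested, the model group was the lower one, so that a separation of this kind was common under this scaling. Among the 27 lower miRNAs, ordered from the largest change, miR-126a-5p was in place 15 and miR-126a-3p in place 19. The 198 miRNAs seen on every array had a median log2 fold change of -0.15, and relative to it the 3p arm was at -0.34 and the 5p arm at -0.44. Over 8 settings, which were the scaling used here, 5 other scalings or value sets, the totals as deposited and no scaling, that median ran from -0.27 to 0.15, while the arms relative to it ran from -0.34 to -0.23 for 3p and from -0.44 to -0.36 for 5p. With normexp background correction 5p was at -0.18 relative to the median.

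The direction held in every setting run, while the call did not. Without any scaling the adjusted p was 0.591 for 3p and 0.386 for 5p, and in that setting 0 miRNAs were called lower by limma, with 4 at an unadjusted p under 0.05, and 19 higher. Without control array 1 the adjusted p was 0.0878 and 0.0766, and without control array 2 it was 0.0506 for 3p, and 0.0495 for 5p.

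**Figure D2:**
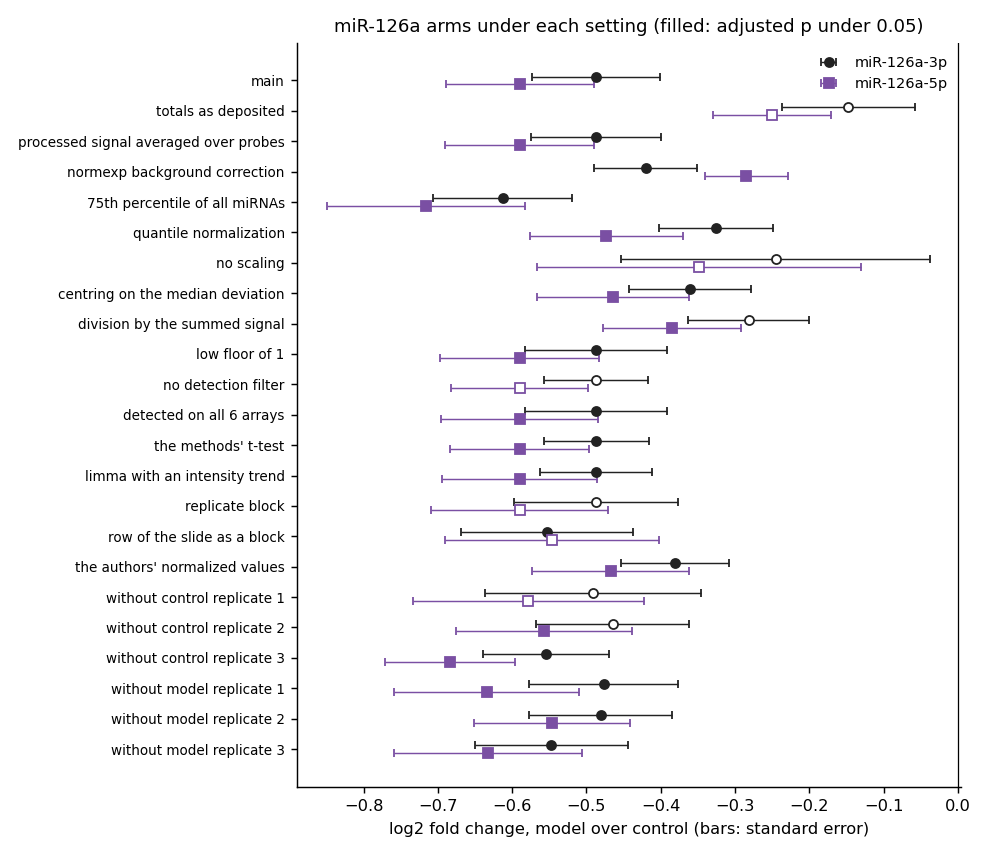
Log2 fold change of both arms (model over control, x axis) under the setting reported and each alternative (y axis), with bars for the standard error and filled marks for an adjusted p under 0.05. All points lie below 0, from -0.61 to -0.15 for miR-126a-3p and from -0.72 to -0.25 for miR-126a-5p, and the points nearest 0 are those of the totals as deposited, of no scaling and, for 5p, of normexp.

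**Figure D3:**
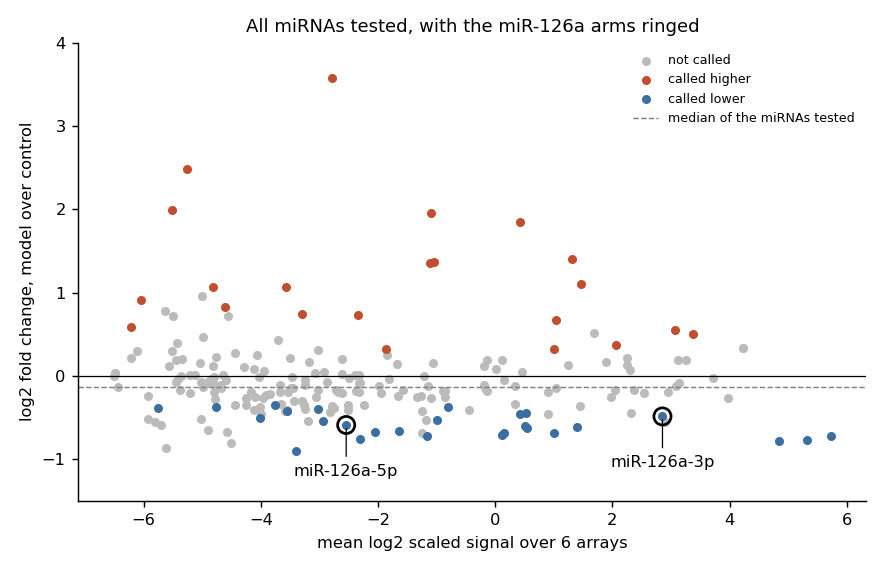
Log2 fold change (model over control) of the 214 miRNAs tested against their mean log2 scaled signal over the 6 arrays, coloured by limma call at an adjusted p of 0.05. The 2 ringed arms lie among the 27 miRNAs called lower, miR-126a-3p toward the bright end and miR-126a-5p near the middle in order of brightness.

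The ratio of the arms needs no scaling, because both stand on the same array. It also holds the binding of different probes, so that only its change between arrays can be read, not how many molecules of each arm were present. On the control arrays miR-126a-3p had 39.8, 40.2 and 42.2 times the signal of miR-126a-5p, and on the model arrays it had 40.5, 46.0 and 44.8 times. Model array 1 lay among the control arrays, and model arrays 2 and 3, in the other row of the slide, lay above all of them. The log2 ratio of the control group was 5.35 ± 0.05 (SD, n = 3), and that of the model group was 5.45 ± 0.10 (SD, n = 3). The difference was 0.10, and the groups overlapped (exact permutation test, two-sided, p = 0.2, smallest possible 0.1, so that this design could not pass 0.05). With the brighter 3p probe alone it was 0.099, and under normexp correction, whose offset of 50 exceeds the whole signal of the 5p arm, it was -0.14. The part of the row of the slide was not tested.

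The abundance rank, counted from the brightest detected miRNA of each array, moved down for both arms. miR-126a-3p held ranks 13, 13 and 12 on the control arrays, against 16, 15 and 16 on the model arrays. miR-126a-5p held ranks 89, 90 and 93 on the control arrays, against 101, 111 and 104 on the model arrays. In both cases the groups did not overlap, which gives the smallest possible p (exact permutation test, two-sided, p = 0.1). As a share of the summed signal of all detected miRNAs, the 3p arm held 2.15%, 2.00% and 2.01% on the control arrays, against 1.65%, 1.70% and 1.71% on the model arrays, again without overlap. The share of the 5p arm was 0.0476% to 0.0539% in the control group and 0.0370% to 0.0407% in the model group. How many other miRNAs had ranks or shares without overlap was not counted. For scaled signals the groups did not overlap for 47.2% of the 214 tested, so such a separation need not be particular to the arms.

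**Figure D4:**
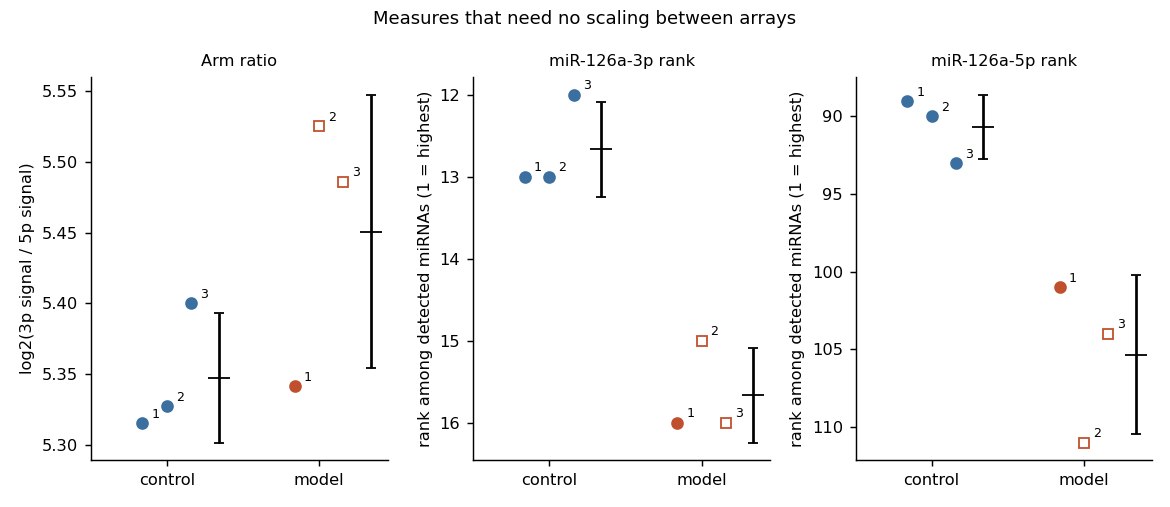
Log2 ratio of the 3p to the 5p signal (left) and the abundance rank of miR-126a-3p (middle) and miR-126a-5p (right, rank 1 is the brightest miRNA and lies toward the top) on each array, with symbols as in the plot of signals. The ratio overlaps between the groups, from 5.32 to 5.40 in the control group and from 5.34 to 5.52 in the model group, while both ranks lie lower on all 3 model arrays.

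The ranks show which miRNAs changed places with the arms. This list was made after the values were seen and has no test of its own. Of the 198 miRNAs detected on all arrays, miR-125b-5p and miR-23a-3p were dimmer than miR-126a-3p on all 3 control arrays and brighter on all 3 model arrays. For miR-125b-5p the log2 ratio to miR-126a-3p went from -0.30 in the control group to 0.73 in the model group, and for miR-23a-3p from -0.07 to 0.61. Another 9 miRNAs were above miR-126a-3p and 182 below it on all 6 arrays. For miR-126a-5p, 6 miRNAs passed it in the same way, miR-31a-5p, miR-152-3p, miR-93-5p, miR-181b-5p, miR-500-3p and miR-98-5p. The largest shift was that of miR-31a-5p, from -2.32 to 1.84 on the log2 scale of the ratio to miR-126a-5p. On all 6 arrays 86 miRNAs were above miR-126a-5p and 86 below it. By mean rank over the 6 arrays, miR-126a-3p stood between miR-30c-5p and let-7d-5p, and miR-126a-5p between miR-702-3p and miR-98-5p. The ranks of miR-30c-5p, from 8 to 22, overlapped those of miR-126a-3p, and the ranks of miR-702-3p, from 88 to 109, overlapped those of miR-126a-5p. miR-98-5p, from 96 to 105, was below miR-126a-5p on all control arrays and above it on all model arrays, so that its place beside the arm is that of the mean over both groups. let-7d-5p stayed between rank 17 and 19, below miR-126a-3p on all arrays.

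The 2 arms varied together over the arrays. The Pearson correlation of their log2 scaled signals over the 6 arrays was 0.979, and miR-126a-5p was the miRNA most like miR-126a-3p among 197 compared. The next were miR-503-5p with 0.977, miR-322-5p with 0.973, miR-6216 with 0.967 and miR-378a-5p with 0.962. For miR-126a-5p, the 5 most alike were miR-322-5p with 0.983, miR-503-5p with 0.981, miR-30c-2-3p with 0.980, miR-450a-5p with 0.980 and miR-30b-5p with 0.980, and miR-126a-3p followed in place 6. These values describe 6 arrays in 2 groups that share the scaling of each array. All of the miRNAs named here as alike were called lower in the model group, with log2 fold changes from -0.75 for miR-6216 to -0.37 for miR-450a-5p. Picking by correlation over 2 groups in which the arms differed favours miRNAs that differ in the same direction, so this is not a separate result. Of all miRNAs tested, 12.6% were called lower.

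Other miRNAs known from endothelium or vessel growth moved in both directions. Of 23 such miRNAs, 21 were tested, of which 3 fell, 4 rose and 14 did not pass the test, beside 12.6% lower and 10.3% higher of all miRNAs tested. miR-18a-5p and miR-126b were not detected on any array. The median log2 fold change of the 21 was 0.13, beside -0.14 over all 214 miRNAs tested, and it was -0.060 with normexp background correction, -0.11 over the members detected on all arrays and 0.0031 to 0.37 over the 8 settings of the scaling. The 3 that fell were miR-503-5p with -0.54 (adjusted p = 0.0170), miR-322-5p with -0.45 (adjusted p = 0.0132) and miR-92a-3p with -0.37 (adjusted p = 0.0355, limma). miR-92a-3p, a member of the miR-17-92 cluster known for holding back vessel growth, was called under 1 of the 8 settings of the scaling, and miR-322-5p and miR-503-5p under 5 each. Of the 4 that rose, miR-23b-3p had 0.50 (adjusted p = 0.00626) and miR-27b-3p had 0.37 (adjusted p = 0.0345), both from one cluster known for roles in angiogenesis. miR-221-3p rose by 1.07 on the log2 scale (adjusted p = 0.00355). miR-222-3p, its partner, was detected on 0 of 3 control arrays and was called higher (adjusted p = 5.5e-04 in limma, with the control arrays held at the floor, mean log2 scaled signals -6.50 and -4.02). It entered the test only through the model group, where it was detected on all 3 arrays. The filter thus favoured its call, and the 4 that rose include it. Its model level was 2.82-fold that of the control arrays when their undetected signal, or the lowest detected signal if larger, was taken. That value is an estimate and not a lower limit. The study picked miR-221-3p and miR-222-3p on these same arrays, so they are not independent evidence of a direction. A ratio to the summed signal of the list needs no scaling. Its log2 value for miR-126a-3p went from -2.279 ± 0.022 (SD, n = 3) to -3.004 ± 0.074 (SD, n = 3) without overlap. Of that sum, 81.5% to 85.9% came from 5 members, miR-23a-3p, miR-23b-3p, miR-24-3p, miR-27a-3p and miR-27b-3p, so that the ratio is mainly one to these. The number of other miRNAs whose ratio to this list or to those below did not overlap was not counted. For scaled signals the groups did not overlap for 47.2% of the 214 tested.

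**Figure D5:**
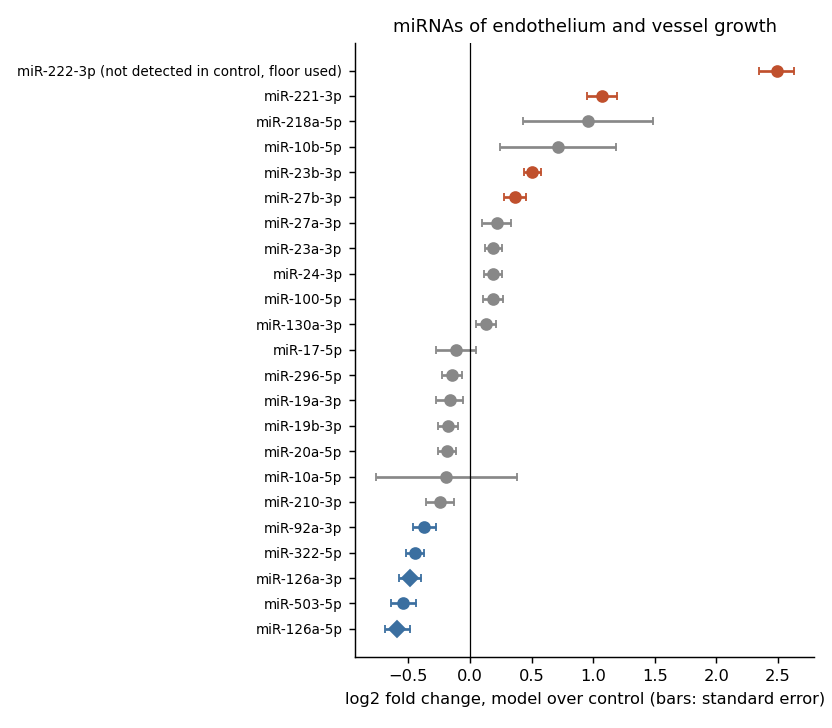
Log2 fold change (model over control) with its standard error for the 2 arms (diamonds) and the 21 tested miRNAs known from endothelium or vessel growth (circles), coloured where the adjusted p in limma is under 0.05 (red higher, blue lower, grey not called). The arms and 3 circles are called lower and 4 circles higher, and miR-222-3p, not detected in the control group, is plotted against the floor.

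MiRNAs of other cell types of the myocardium moved between the same arrays, and their part in the fall of the arms was not tested. Of 6 cardiomyocyte miRNAs, 5 were tested and 3 fell, among them miR-133b-3p, the brightest of them, with -0.72 (adjusted p = 0.0268), beside 12.6% lower of all miRNAs tested. Each of the 3, miR-1-3p, miR-133a-3p and miR-133b-3p, was called under 4 of the 8 settings of the scaling. Quantile normalization, which gives equal ranks equal values, left miR-1-3p and miR-133b-3p without a difference. miR-208a-3p, encoded in a cardiac myosin gene, had the largest difference, -0.87 (adjusted p = 0.0988, limma), and miR-208b-3p was not detected. miR-208a-3p was detected on 5 of 6 arrays, and its mean in the model group, -6.05, lay near the floor of -6.50. Its value ran from -2.36 to -0.49 over the 8 settings of the scaling. The median of the 5 tested miRNAs was -0.72, and the summed share of all 6 in the list went from 27.8% to 30.8% of the signal in the control group to 17.3% to 22.3% in the model group. Against that sum, the log2 ratio of miR-126a-3p was -3.85 ± 0.13 (SD, n = 3) for the control arrays, against -3.60 ± 0.22 (SD, n = 3) for the model arrays, and these overlapped. Of 7 fibroblast and matrix miRNAs, 4 rose and 0 fell in limma, beside 10.3% higher and 12.6% lower of all miRNAs tested. The 4 were miR-21-5p, miR-199a-3p, miR-199a-5p and miR-214-3p. The study picked all 4 on these same arrays, so they are not independent evidence of a direction. The median of the 7 was 1.101, and the largest value was that of miR-199a-5p, 1.95 (adjusted p = 0.00147, limma). The brightest, miR-29a-3p, had -0.13 (adjusted p = 0.486), and the summed share of the 7 went from 4.51% to 5.38% up to 6.56% to 8.28%. Against this sum the log2 ratio of miR-126a-3p went from -1.27 ± 0.09 (SD, n = 3) to -2.09 ± 0.17 (SD, n = 3) without overlap.

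Of 3 smooth muscle miRNAs, 2 were tested and 0 passed, miR-143-3p at -0.17 (adjusted p = 0.365, limma) and miR-145-5p at -0.17 (adjusted p = 0.267). miR-145-3p was not detected, and the summed share overlapped between the groups, 1.27% to 1.50% and 1.35% to 1.53%. The log2 ratio of miR-126a-3p to that sum went from 0.55 ± 0.13 (SD, n = 3) to 0.24 ± 0.11 (SD, n = 3) without overlap. Of 6 leukocyte miRNAs, 5 were tested, of which miR-155-5p rose by 1.07 on the log2 scale (adjusted p = 0.0127, limma) and miR-150-5p, the brightest, had -0.60 (adjusted p = 0.0178). With the totals as deposited the value of miR-155-5p was -1.92 and not called, and the study picked it as raised on these same arrays. miR-150-5p was called under 4 of the 8 settings of the scaling. Of all miRNAs tested, 10.3% were called higher and 12.6% lower. miR-142-5p was not detected, and the summed share was 0.709% to 0.775% in the control group and 0.574% to 0.690% in the model group. Of 4 red blood cell miRNAs, 2 were tested, of which miR-486 fell (-0.68, adjusted p = 0.0132) and miR-451-5p had -0.53 (adjusted p = 0.132, limma), while miR-144-3p and miR-144-5p were not detected. Their summed share was 0.400% to 0.530% in the control group and 0.320% to 0.375% in the model group. miR-486 was called under 5 of the 8 settings of the scaling. The log2 ratio of miR-126a-3p to the leukocyte sum, 1.48 ± 0.12 and 1.40 ± 0.11 (SD, n = 3 each), and to the red blood cell sum, 2.14 ± 0.20 and 2.30 ± 0.11 (SD, n = 3 each), overlapped between the groups.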

How the data were processed

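MiRNA signals of 3 control and 3 model arrays were analysed, grouped and numbered by the sample titles. The authors deposited the intensity values of Agilent Feature Extraction 10.7.1.1, background-subtracted and not scaled between arrays, and normalized log2 values of the same arrays whose method is not named in the sources used here. In these normalized values miR-126a-3p stood at 10.4462 on all 3 control arrays, though its signals differed. Quantile normalization can give such equal values, so the authors' values may not be a setting separate from it. No genome build is named in the files.

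The signal of a miRNA was the sum of its probes whose signal was over 3 times their error. The deposited total column was not used as the main value, because 289 detected totals exceeded their own probes by more than a relative tolerance of 0.0001. None (0) of them belonged to the arms. Signals were scaled to each array's 75th percentile, taken over 198 miRNAs seen on every array, put on the log2 scale and held at a floor of -6.50, the highest among arrays of the lowest detected level. The 214 miRNAs seen on all arrays of 1 group or of both entered the comparison by limma 3.58.1 (R 4.3.3), with Benjamini-Hochberg adjustment at 0.05. Ratios and ranks were compared with exact permutation tests. Python 3.11.15 was used for the other steps. The fit was tested on simulated data, with changes larger than those of the arms put in after scaling. It therefore does not show how well changes of their size are found, nor does it test the scaling. Precision is limited by the number of arrays, 3 in a group, and by detection. Per the study's methods, the tissue samples were drawn at random from the rats of each group. The labels name no rat, so p-values measure the spread between these samples.

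The arms, the lists of cell type miRNAs, the tests and the alternatives were chosen with earlier results of these data known. Named were the arms, miR-126b, the 5 miRNAs most correlated with each arm, the neighbours in mean rank, the members of the endothelium list that passed the test and, of each other list, the brightest member and the one with the largest change. Values were already seen when the main members of the endothelium sum, miRNAs that changed places with the arms, members not detected and further members of short lists were named. Alternatives covered the scaling, the background correction, the floor, the filter, the test, the blocks, the authors' values and each array left out. RefSeq held the sequences of both arms and of 685 of the 758 miRNAs.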

Additional observations from a re-analysis of the deposited data

How the results depend on the processing

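Both arms kept a negative log2 fold change in all 24 alternatives for miR-126a-3p and all 23 for miR-126a-5p, and 17 of each kept an adjusted p under 0.05. For miR-126a-5p these include its single probe taken alone, which is the main fit itself and could not differ. Alternatives of the filter, of the test and of the replicate block could not change the fold change, only its p-value. The same holds for the low floor of 1, since both arms lay above the floor. Processed signals averaged over probes come from the same spots and gave the main values again, -0.49 and -0.59. With the totals as deposited the values were -0.15 and -0.25. No scaling gave -0.25 and -0.35. Without a detection filter, with 758 miRNAs tested, the values were -0.49 (adjusted p = 0.0894) and -0.59 (adjusted p = 0.111) in limma. Division by the summed signal gave -0.28 for 3p (adjusted p = 0.0537), and a block for slide row gave -0.55 for 5p (adjusted p = 0.0710). Leaving out 1 array in turn gave -0.55 to -0.46 for 3p, with 2 calls lost, and -0.68 to -0.55 for 5p, with 1 lost.

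With the replicate block the values were -0.49 (adjusted p = 0.0855) and -0.59 (adjusted p = 0.0783) in limma, and 16 miRNAs were called in place of 49. Whether the replicate numbers pair the arrays cannot be told from so few values. The deviations of same-numbered arrays correlated at -0.26, 0.032 and 0.24, and those of unlike-numbered arrays at -0.30 to 0.22. The count of 49 miRNAs was 19 without scaling, 9 without a detection filter, 26 with the methods' t-test and 29 with a block for slide row, and 14 to 39 with 1 array left out, lowest without control array 1 and 26 and 27 without control arrays 2 and 3. The split of 22 higher and 27 lower was 19 and 47 when the 75th percentile ran over all miRNAs, 23 and 16 with quantile normalization, 30 and 16 with median centring, 34 and 11 with the summed signal, 23 and 14 with the authors' values and 35 and 1 with the totals as deposited. The log2 arm ratio difference of 0.10 was -0.14 with normexp and 0.066 to 0.16 with 1 array left out, and both ranks kept their direction in all 11 alternatives. Among these the replicate block could not change the difference in mean rank. The median of the endothelium list was -0.060 with normexp and -0.11 over miRNAs detected on all arrays, which leaves out 2 members, and it was 0.0031 when the 75th percentile ran over all miRNAs, 0.32 with the totals as deposited, 0.33 with the summed signal and 0.37 without scaling, against 0.13. Beyond these constructions, causes were not tested.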
